A study of Mus musculus with 2 samples.

Results

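The Fos and Jun genes encode the core subunits of the transcription factor AP-1. The family was taken as the 7 listed genes Fos, Fosb, Fosl1, Fosl2, Jun, Junb and Jund, all of which were found in the GENCODE M21 annotation among 21853 protein-coding genes. Open chromatin was mapped by DNase-seq: nuclei are treated with DNase I, which cuts DNA free of nucleosomes, and the positions of the cuts are read by sequencing. The 2 samples were hippocampus from male mice aged 2 months, hybrids between the B6 and CAST strains (B6CASTF1/J). The labels call the tissue a layer of the hippocampus and record no treatment or allele. They number the samples as biological replicates 1 and 2 of a single group, with separate biosamples but one donor entry. The labels leave it unsaid if these were different animals, so the spread between them may be partly technical, and no comparison between groups and no test was possible.

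AP-1 is a dimer of leucine zipper proteins. Jun proteins pair with each other or with Fos proteins, whereas Fos proteins need a Jun partner to bind DNA at the AP-1 site. In neurons Fos, Fosb and Junb are known as immediate early genes, which synaptic activity switches on within minutes through kinases that act on factors already bound at their promoters and enhancers, among them CREB at the cAMP response element (CRE) and the serum response factor SRF at the CArG box. Fos RNA and protein are widely used as markers of recently active neurons, and Jund is known for more constant expression.

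The main peak list held 132685 peaks in replicate 1 and 59880 in replicate 2, and 38.0% and 81.8% of them overlapped a peak of the other replicate. Heights came in equal steps of 0.00535 in replicate 1 and of 0.0108 in replicate 2, to within 0.02 steps for every height under 500 steps. Read as 1 sequenced cut per step, the promoter heights of the family stood for 333 to 2137 of them in replicate 1 and 131 to 465 in replicate 2, with counting errors of 2.16% to 5.48% and 4.64% to 8.74%. This reading is an inference from the values, since the deposited files state no depth. Of the marker genes listed for the tissue check, 3 of 4 excitatory neuron, 2 of 3 dentate granule cell, 2 of 4 oligodendrocyte, 1 of 3 interneuron and 1 of 4 astrocyte genes had an open promoter (defined in the next paragraph), as did 57.1% of all protein-coding genes. None of 4 microglial, 4 vascular and 3 liver genes had one. Of these, 2 microglial genes and 1 vascular gene had a promoter peak in replicate 1 only. Another 1 vascular gene had peaks in both replicates that did not overlap. The other 2 microglial, 2 vascular and all 3 liver genes had no promoter peak. Because the signal was read over all cells of a sample together, a site open in fewer cells and a site less open in each cell cannot be told apart. A site open in few cells may give no peak.

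A promoter was counted as open where a shared site, the stretch covered by peaks of both replicates, lay within 500 bp of the start of any protein-coding transcript. All 7 genes of the family had an open promoter, against 57.1% of all protein-coding genes. The upstream part of the highest shared promoter site is shown for the 6 genes whose site reached upstream of the start, since these stretches hold the motifs and footprints described later. Footprints are short stretches inside open chromatin that were cut less than their surroundings, and capitals mark bases under a footprint in both replicates. The letters are those of the reference assembly GRCm38 (mm10), written 5′ to 3′ on the strand of the gene, and do not show the CAST allele.
Fos promoter site, chr12:85473541-85473800, plus strand: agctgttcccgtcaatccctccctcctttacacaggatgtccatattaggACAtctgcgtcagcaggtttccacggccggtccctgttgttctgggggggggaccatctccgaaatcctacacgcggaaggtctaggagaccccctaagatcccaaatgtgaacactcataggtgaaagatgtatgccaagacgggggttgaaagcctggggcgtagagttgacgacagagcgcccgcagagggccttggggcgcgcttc
Fosb promoter site, chr7:19310301-19310480, minus strand: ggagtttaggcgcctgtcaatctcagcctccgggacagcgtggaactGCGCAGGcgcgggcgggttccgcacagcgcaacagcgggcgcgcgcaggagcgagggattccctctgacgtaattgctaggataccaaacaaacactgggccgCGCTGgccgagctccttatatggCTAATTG
Fosl2 promoter site, chr5:32135641-32135800, plus strand: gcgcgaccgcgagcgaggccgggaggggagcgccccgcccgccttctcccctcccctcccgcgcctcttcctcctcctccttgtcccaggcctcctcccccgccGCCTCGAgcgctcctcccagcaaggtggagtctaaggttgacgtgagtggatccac
Jun promoter site, chr4:95052223-95052420, minus strand: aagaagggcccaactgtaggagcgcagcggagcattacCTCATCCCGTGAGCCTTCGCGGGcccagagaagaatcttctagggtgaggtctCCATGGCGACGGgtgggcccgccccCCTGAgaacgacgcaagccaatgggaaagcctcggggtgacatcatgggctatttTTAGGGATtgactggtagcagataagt
Junb promoter site, chr8:84978719-84978820, minus strand: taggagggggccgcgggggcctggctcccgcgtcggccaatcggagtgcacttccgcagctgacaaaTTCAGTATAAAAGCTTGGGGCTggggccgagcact
Jund promoter site, chr8:70698661-70698948, plus strand: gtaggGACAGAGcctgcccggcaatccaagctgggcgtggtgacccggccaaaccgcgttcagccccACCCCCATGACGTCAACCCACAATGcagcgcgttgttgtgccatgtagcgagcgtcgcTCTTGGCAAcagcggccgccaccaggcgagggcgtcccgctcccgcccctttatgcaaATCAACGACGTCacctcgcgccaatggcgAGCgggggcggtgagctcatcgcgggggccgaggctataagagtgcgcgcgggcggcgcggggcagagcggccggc
The Junb stretch ran from the base before the start up to the upstream end of the shared site. Since the site itself stopped at -23, part of the Junb footprint bases lay outside it. Of the 102 Junb bases, 22 lay under a footprint in both replicates. The counts were 3 of 260 in Fos, 19 of 180 in Fosb, 7 of 160 in Fosl2, 48 of 198 in Jun and 56 of 288 in Jund. The same share over all open promoters was not computed.

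Outside the promoters, 4 shared sites are shown. Of these, 3 are the sites over 2500 bp from every protein-coding start with a binding motif of the EGR factors. The remaining one, Junb +2.1 kb, is the only nearer site outside the promoters with a binding motif of the STAT factors. In each, a CArG box or an EGR motif overlapped a footprint in both replicates. At Fosb -10.1 kb the footprints of the 2 replicates lay over different bases of the EGR motif, so none of its bases is in capitals. Sites where such a motif lay under or beside a footprint of a single replicate, such as Fosl1 +41.6 kb, are not shown. Positions along a gene are given in kb from its start, negative upstream and positive downstream in the direction of transcription.
Fos +12.2 kb site, chr12:85486001-85486220, plus strand: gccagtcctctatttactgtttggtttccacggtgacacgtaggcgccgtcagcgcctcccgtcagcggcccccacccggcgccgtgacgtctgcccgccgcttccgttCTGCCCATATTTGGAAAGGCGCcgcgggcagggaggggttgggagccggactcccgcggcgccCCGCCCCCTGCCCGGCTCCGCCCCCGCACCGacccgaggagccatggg
Junb +2.1 kb site, chr8:84976521-84976740, minus strand: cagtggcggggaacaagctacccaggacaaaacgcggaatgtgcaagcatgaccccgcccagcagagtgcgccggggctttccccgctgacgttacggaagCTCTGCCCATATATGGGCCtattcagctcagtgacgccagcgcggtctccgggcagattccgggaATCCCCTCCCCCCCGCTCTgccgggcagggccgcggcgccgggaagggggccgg
Fosb -10.1 kb site, chr7:19320041-19320260, minus strand: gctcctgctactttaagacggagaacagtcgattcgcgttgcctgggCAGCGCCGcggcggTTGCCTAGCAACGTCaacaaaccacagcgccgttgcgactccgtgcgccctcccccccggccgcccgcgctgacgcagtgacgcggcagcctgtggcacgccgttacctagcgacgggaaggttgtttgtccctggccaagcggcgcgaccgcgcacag
Junb -7.5 kb site, chr8:84986041-84986300, minus strand: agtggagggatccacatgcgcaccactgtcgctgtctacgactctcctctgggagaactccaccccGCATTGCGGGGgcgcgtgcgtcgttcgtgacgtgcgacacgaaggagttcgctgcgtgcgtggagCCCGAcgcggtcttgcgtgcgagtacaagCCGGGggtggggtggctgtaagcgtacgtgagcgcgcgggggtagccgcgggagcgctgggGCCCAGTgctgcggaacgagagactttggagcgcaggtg

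The Fos promoter, on chromosome 12, gave a shared site of 260 bp from -349 to -90, counting the start site as 0. In the signal units of the authors it reached 2.64 in replicate 1 and 2.50 in replicate 2. Both values lay near or below the median of all 12484 open promoters, which was 4.05 and 2.46, and on average 41.3% of open promoters were lower. The site held 3 footprints in each replicate, and 1 of them overlapped between replicates. That footprint lay beside a CArG box at -309 to -300 with the letters CCATATTAGG, the class of site bound by SRF, and next to the core letters of a CRE, TGACG, at -292 to -288. In replicate 1 the footprint covered -304 to -297 and thus the last bases of the CArG box, and in replicate 2 it covered -299 to -287.

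Fos also had the most shared distal sites of the family. A distal site lay more than 2500 bp from every protein-coding start, and 7 such sites were found in the gene and 50 kb on each side, compared with a median of 1 for all genes. At least as many were found for 4.86% of all genes, and per 100 kb Fos, with 6.77, was above 99.1% of them. The highest was the intergenic site at +12.2 kb, with a height of 6.79 in replicate 1 and 3.55 in replicate 2. Next came an intergenic site at -18.5 kb with 5.80 and 2.86, and then a site at -37.7 kb over an exon of the gene model Gm40477 with 3.07 and 1.89. The sites at +12.2 and -18.5 kb were higher than the Fos promoter itself in both replicates. At least 1 distal site higher than the promoter in both replicates was found for 17.7% of open genes and at least 2 for 6.53%, and Fos was the only gene of the family with any.

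The +12.2 kb site was among the highest distal sites of the whole data set, above 99.1% of the 28183 shared distal sites in each replicate. It held 4 footprints in replicate 1 and 2 in replicate 2, and both of the latter overlapped a footprint of replicate 1. One covered a CArG box with the letters CCATATTTGG from end to end in both replicates. The other covered a pair of GC boxes and an EGR motif, the sequence bound by the zinc finger factors that the early genes Egr1 to Egr4 encode. A CArG box was found in 1.34% of 300 bp windows around shared distal sites, an EGR motif in 1.15%, and both together in 7 sites or 0.0248%. The CTCF core motif overlapped a footprint of both replicates in the lower site at +14 kb, whose height was 1.89 and 1.53. CTCF is a factor that bounds chromatin loops.

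Fosb, on chromosome 7, encodes the closest relative of Fos and, by splicing, the stable form ΔFosB. Its promoter site of 180 bp lay at -429 to -250, with a height of 6.08 in replicate 1 and 3.69 in replicate 2. These values exceeded those of 74.6% and 81.9% of open promoters. In replicate 2 the peak ran on to the start, covering 440 bp, whereas the replicate 1 peak ended at -250. Of 5 footprints in replicate 1 and 4 in replicate 2, 3 were found in both. A CArG box with the letters CCTTATATGG lay at -266 to -257. It overlapped the footprint of replicate 2 and lay within 10 bp of one in replicate 1. Upstream of it an EGR motif at -376 to -368 overlapped a footprint in each replicate, though that of replicate 2, at -382 to -376, met only its first base.

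Fosb had 5 shared distal sites, more than 87.9% of genes had. A proximal site inside the gene at +1.4 kb, over an exon and 0.8 kb from an alternative coding start, reached 6.01 in replicate 1 and 3.38 in replicate 2, close to the promoter values. The highest distal site lay at +14.1 kb over an exon of the neighbouring gene Rtn2, a reticulon gene, with 10.3 in replicate 1 but 3.17 in replicate 2. All 3 of its footprints in replicate 1 were found in replicate 2, yet none of the 15 motifs searched was present. The site at -10.1 kb, over an exon of the gene model D830036C21Rik, had heights of 5.88 and 2.98 and an EGR motif that overlapped a footprint in each replicate. These footprints, at -10096 to -10081 in replicate 1 and -10079 to -10068 in replicate 2, did not overlap each other. At -17.3 kb, in an intron of the same gene model, a site of 2.84 and 1.27 held the AP-1 sequence TGAGTCA, the element that Fos and Jun dimers bind, which overlapped a footprint in both replicates. At -23.0 kb, over an exon of Gm44698, heights were 3.26 and 1.69.

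Fosl1, on chromosome 19, encodes Fra-1 and had the weakest promoter. The shared site of 163 bp lay at +51 to +213, inside the first exon, with a height of 1.78 in replicate 1 and 1.41 in replicate 2, above 20.1% and 20.4% of open promoters. It held 1 footprint in each replicate, and these overlapped. Fosl1 was also the one gene of the family with 0 shared distal sites, which 30.0% of all genes shared. Its region was instead dense in the promoters of other genes, with 10 shared sites near starts of neighbours such as Ccdc85b, Fibp, Mus81 and Cfl1. In the shorter list of more stringent peaks the Fosl1 promoter had no shared site. The lowest log10 FDR (false discovery rate) listed over it was -6.45 in replicate 1 and -1.88 in replicate 2.

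Fosl2, on chromosome 5, encodes Fra-2. Its promoter had 3 shared sites, and the highest, from -160 to +139, measured 4.79 in replicate 1 and 3.08 in replicate 2. A site just upstream at -0.3 kb reached 3.62 and 3.08, where a single peak of replicate 2 spanned both. The footprints numbered 9 in replicate 1, 6 in replicate 2 and 3 in both. An AP-1 site with the letters TGACTCA lay at +53 to +59, and it was the only one in a promoter window of the family. No footprint overlapped it in either replicate. Among the 3 shared distal sites, the one at +62.1 kb, beyond the far end of the gene and intergenic, was highest with 4.55 and 2.21. The other two, at -2.8 and +71.1 kb, stayed at or below 1.14 in both replicates.

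Jun, on chromosome 4, encodes the partner that most Fos dimers contain, and its promoter was the highest of the family in replicate 1. The height was 11.4 in replicate 1 and 4.27 in replicate 2, above 98.9% and 90.7% of open promoters. The shared site ran from -198 to +21 over the start. Replicate 1 had 4 footprints there and replicate 2 had 5, and all 4 were found in both. They were 12 to 37 bp long in replicate 1 and 8 to 29 bp in replicate 2. A MEF2 motif at -33 to -24 overlapped a footprint in each replicate. MEF2 factors are activity-dependent regulators in neurons, and this motif was found in 0.224% of open promoters. Beside it, at -45 to -38, lay TGACATCA, an element of the kind bound by Jun and ATF2 dimers, which was under a footprint of replicate 1 only and was present in 1.23% of open promoters.

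Away from its promoter, Jun was surrounded by proximal rather than distal sites. A proximal site at -1.1 kb, over an exon of the antisense gene Junos, reached 4.33 in replicate 1 and 3.08 in replicate 2 with 3 footprints found in both. Within the gene, which has a single exon, sites at +0.7, +1.5 and +2.1 kb had heights between 0.920 and 2.08. The only shared distal site of Jun lay at +43.9 kb, in an intron of the gene model Gm12694, with 4.28 and 1.86.

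Junb, on chromosome 8, had a promoter height of 4.88 in replicate 1 and 4.04 in replicate 2. The ranks differed, since 60.6% of open promoters were lower in replicate 1 and 87.8% in replicate 2. The shared site was only 80 bp long, at -102 to -23, because the replicate 1 peak was that narrow, whereas the peak of replicate 2 covered 360 bp. One footprint was found in both replicates and lay over the TATA box TATAAA at -30 to -25. This core promoter element was found in the windows of 3.56% of open promoters, and in the family only in that of Junb. The windows were centred on the shared sites, and those of Fos, Fosb and Fosl1 did not cover -30 to -25. A TATA box there was thus not looked for in these genes.

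The highest site in the Junb region was not the promoter. A proximal site at +2.1 kb reached 7.48 in replicate 1 and 4.37 in replicate 2, above the promoter in both. It lay past the end of the protein-coding transcript but inside an exon of a longer transcript of the gene, and 3 of its 4 footprints in replicate 1 were found in replicate 2. It held the CArG box CCATATATGG under a footprint in both replicates. The STAT motif TTCCGGGAA, which factors of cytokine signalling bind, was also overlapped by a footprint in both, but in replicate 2 only at its last base. Of 5242 shared proximal sites, those from 501 to 2500 bp away from the nearest start, 1.24% held a CArG box, 0.801% a STAT motif and 1, this site, both. No other pair was counted over the proximal sites, and with this site among them the count could not be below 1. A proximal site at -1.3 kb had heights of 5.56 and 2.73 and 4 footprints found in both replicates. A CArG box lay in the 300 bp window around it but outside the shared site, with no footprint over it.

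Junb had 4 shared distal sites. The site at -7.5 kb lay between Junb and the microtubule adaptor gene Hook2, 4.3 kb from the nearest Hook2 start. Its heights were 5.02 in replicate 1 and 3.40 in replicate 2, and its EGR motif overlapped a footprint in each. The site at -19.4 kb, over a Hook2 exon, had 6.04 and 2.1 with a CTCF core motif that overlapped a footprint in both replicates. At +3.1 kb, in an intron of the longer Junb transcript, heights were 1.99 and 1.33.

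Jund, also on chromosome 8, had the highest promoter of the family in replicate 2. Its height was 7.57 in replicate 1 and 5.0 in replicate 2, above 87.2% and 96.7% of open promoters. The site of 320 bp ran from -288 to +31 and held 7 footprints in replicate 1 and 6 in replicate 2. Of these, 5 were found in both, the most in the family. The full palindromic CRE, TGACGTCA, lay at -214 to -207 inside a footprint in each replicate, and Jund was the only member with this motif in its promoter window, against 4.13% of open promoters. An EGR motif at -75 to -67 overlapped a footprint in both replicates too. Jund had 1 shared distal site, at -31.7 kb, and it was low at 1.17 and 0.914. Proximal sites at +1.1 kb, over its single exon, and at +1.8 kb, just past its end, had 1.77 and 2.68 and then 2.57 and 1.59.

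**Figure D1:**
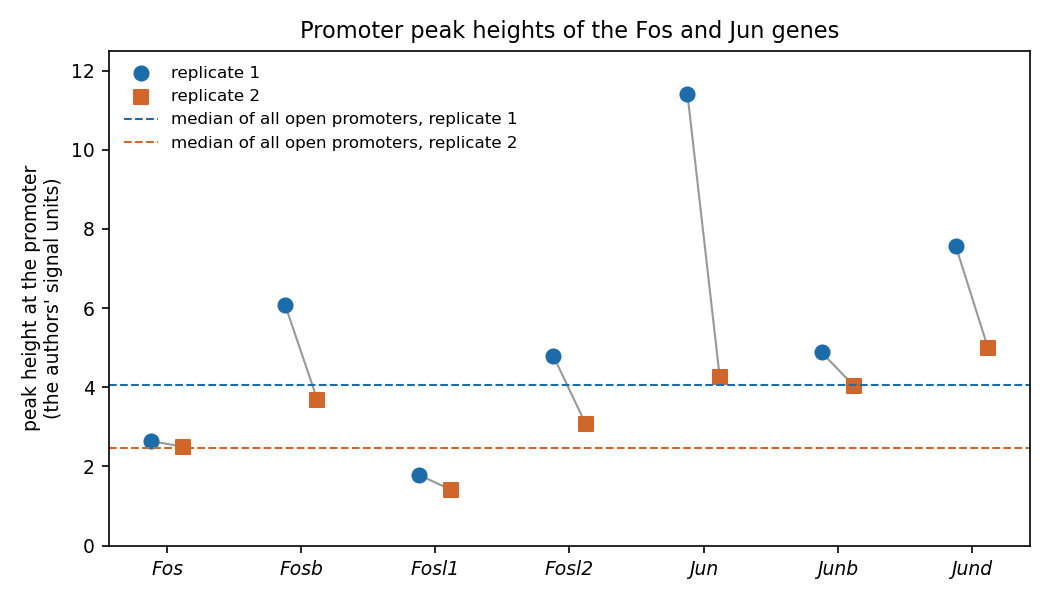
Height of the highest shared promoter site of each gene in replicate 1 (circles) and replicate 2 (squares), in the authors' signal units, with dashed lines at the median of all open promoters (4.05 and 2.46). Jun reached 11.4 in replicate 1, Fosl1 was lowest in both, and every gene was higher in replicate 1.

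Across the family the order of promoter heights was nearly the same in both replicates at the bottom and less so at the top. By the mean percentile over both replicates the order was Jun with 94.8, Jund with 91.9, Fosb with 78.3, Junb with 74.2, Fosl2 with 63.5, Fos with 41.3 and Fosl1 with 20.2. Neighbours in this order cannot all be separated. Jun was above Jund in replicate 1 and below it in replicate 2, and Junb was below Fosb in replicate 1 and above it in replicate 2, while Fosl1 was lowest and Fos next lowest in both. The median percentile of the family was 74.2, against 50.5 for all open promoters. Base composition was close to that of other open promoters, with a median GC content of 66.3% against 65.3%. None of the 7 shared its promoter site with another protein-coding gene, though the antisense gene Junos is annotated beside Jun.

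Heights were lower in replicate 2 for each of the 7 promoters, as they were for most promoters. The log2 ratio of replicate 2 over replicate 1 had a median of -0.60 in the family and -0.71 over all open promoters, whose 5th and 95th percentiles were -1.32 and 0.39. Jun, at -1.42, was the one gene outside that range, and 2.47% of open promoters had a lower ratio. Fos, at -0.08, was closest to equal heights. Taken as percentile ranks, the family stood higher in replicate 2 by a median of 7.86 points. Overlap of both peaks by 50% of each, in place of 1 bp, left 4 of 7 promoters open. The share of all protein-coding genes left open by this rule was not computed. Fosb, Jun and Junb were lost because the peak of replicate 2 was much wider, 440 against 180 bp in Fosb, 600 against 220 bp in Jun and 360 against 80 bp in Junb. The median percentile of the remaining genes was then 50.3.

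**Figure D2:**
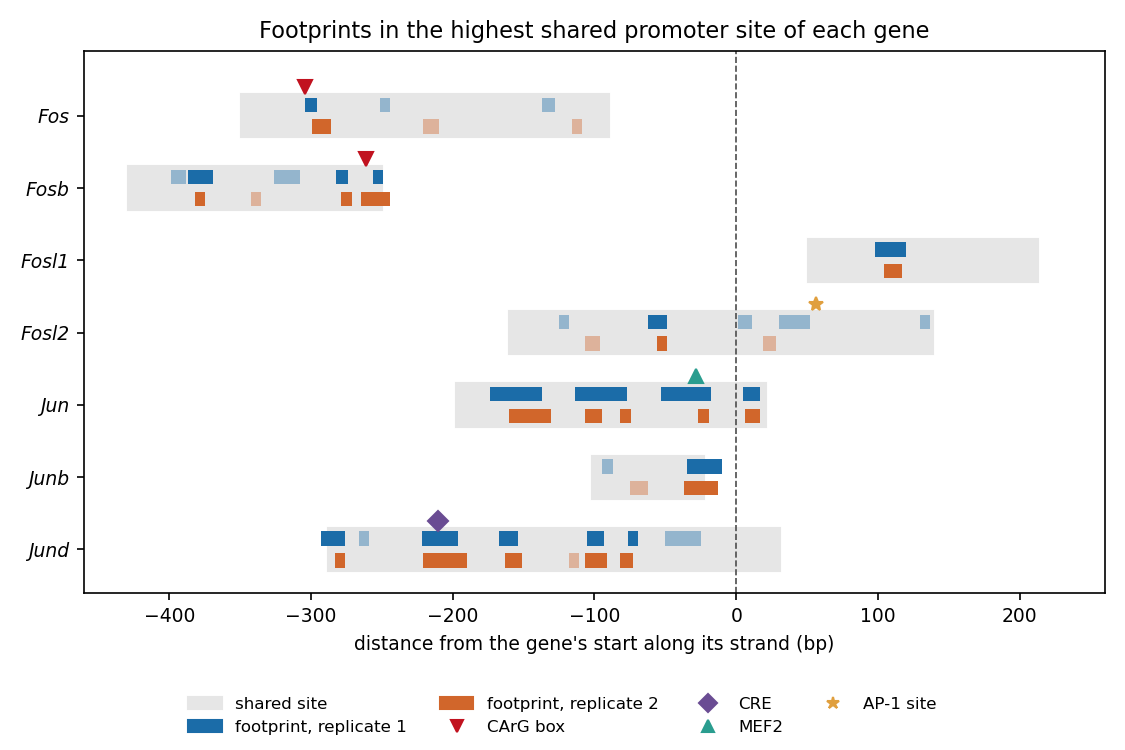
Footprints within the highest shared promoter site (grey) of each gene, by distance from the start in bp, with replicate 1 above and replicate 2 below in each row. Full colour marks footprints found in both replicates and pale colour those found in 1. Symbols mark CArG, CRE, MEF2 and AP-1 matches in the promoter windows.

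All 7 genes had at least 1 promoter footprint found in both replicates, against 78.3% of genes with an open promoter. The number found in both ranged from 1 in Fos, Fosl1 and Junb to 5 in Jund, with a median of 3 against 2 for all open promoters. Only footprints inside the shared sites were counted, so the borders of these sites limited where they could lie. The sites of Fos and Fosb ended at -90 and -250, and all counted footprints lay upstream, 1 of them beside the CArG box. A Fos peak of replicate 1 ran on to +70 with 7 footprints, and the Fosb peak of replicate 2 to +10 with 8. In Jun and Junb, whose sites ended at +21 and -23, 1 footprint lay over the bases just before the start. The Fosl1 site began at +51, and its footprint lay downstream of the start.

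**Figure D3:**
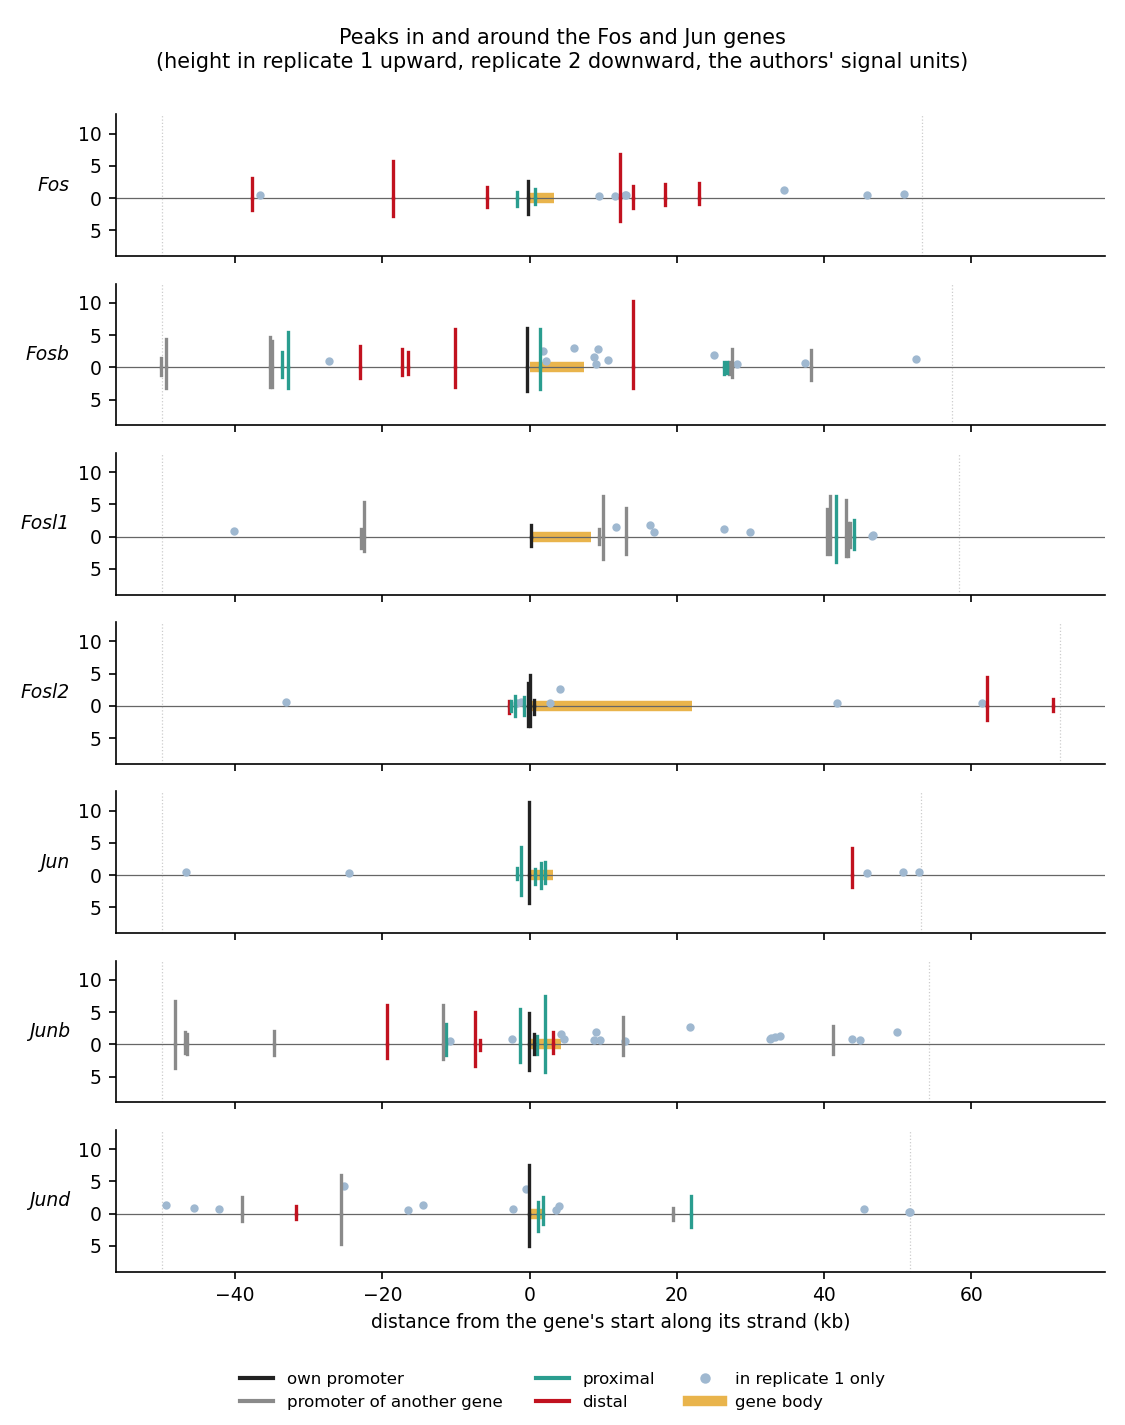
Peaks in each gene and 50 kb on each side, by distance from the start in kb, with height in replicate 1 drawn upward and in replicate 2 downward for shared sites and points for peaks in replicate 1 only (all in the authors' signal units). Red bars are distal sites, which number 7 around Fos, 5 around Fosb and 0 around Fosl1.

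The 7 regions held 82 shared sites. Of these, 10 lay at the genes' own promoters, 27 at promoters of other genes, 24 were proximal and 21 were distal. At least 1 shared distal site was found for 6 of 7 genes, against 70.0% of all protein-coding genes. The number per gene had a median of 3 in the family and 1 over all genes, and the number per 100 kb was 2.46 against 0.95. The counts were not alike within the family, as Fos, Fosb and Junb had 7, 5 and 4 while Jun and Jund had 1 each. Some of the 21 distal sites lay nearer the start of another coding gene. These were Fosb +14.1 and -23.0 kb, Fosl2 +62.1 and +71.1 kb, Jun +43.9 kb, Junb -6.8, -7.5 and -19.4 kb and Jund -31.7 kb. Sites were assigned by distance alone, and which gene they act on was not tested. The distal sites of the 7 regions were also taller, with median heights of 2.84 and 1.53 against 1.27 and 0.871 over all shared distal sites. A footprint found in both replicates was present in 15 of the 21, or 71.4%, against 46.0% of all 28183 shared distal sites.

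**Figure D4:**
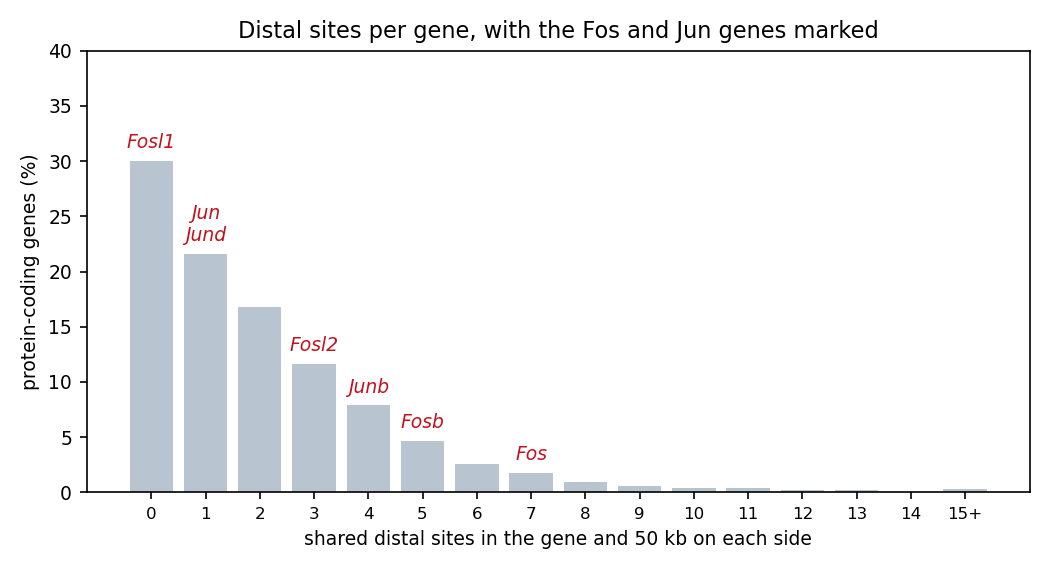
Share of protein-coding genes (%) by the number of shared distal sites in the gene and 50 kb on each side, with the last bar holding 15 or more. Fos at 7 and Fosb at 5 lie in the upper tail, and Fosl1 at 0 is in the tallest bar.

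Small genes with 1 exon or few exons can be open over much of their length. Shared sites covered 27.4% of Junb, 18.9% of Jun and 16.3% of Jund, against 6.35% of Fos, 3.26% of Fosb, 1.94% of Fosl1 and 1.54% of Fosl2. Among the 1293 open genes under 5 kb, whose median was 4.81%, Junb was above 95.5%, Jun above 90.5%, Jund above 87.5% and Fos above 60.2%.

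Motifs were matched exactly on both strands in 300 bp windows around the highest shared promoter site of each gene. The letters were TGACGTCA for the CRE, TGACG for its core, TGANTCA for the AP-1 site, TGACATCA for the Jun and ATF type, CCGGAA for the ETS core, GGGCGG for the GC box, CCAAT for the CCAAT box, TATAAA for the TATA box, CAGATG for the neuronal E-box, GCGNGGGCG for EGR, TTCCNGGAA for STAT, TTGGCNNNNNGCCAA for NFI and CCNCNAGNNGGC for the CTCF core, while the CArG box and MEF2 allow A or T at several places. The CRE contains its core, and EGR and GC box matches can overlap. A match describes letters only and shows no binding, and windows without a match may hold a variant or a site beyond their edge.

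The CRE core was the most widespread of the signal-responsive motifs, present in the windows of Fos, Fosb, Fosl1, Fosl2, Junb and Jund but not Jun, against 36.0% of open promoters. The CArG box was in Fos and Fosb, against 0.945%, and it stood there together with a CRE core, a pair found in 0.320% of open promoters. EGR motifs were in Fosb and Jund, against 13.5%, and neuronal E-boxes in Fos and Fosl1, against 9.34%. The CCAAT box was in Jun, Junb and Jund, against 37.4%. The GC box was in 5 genes, all but Fos and Junb, against 71.7%. The ETS core was in none, against 30.7%, and neither were NFI, STAT or the CTCF core.

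In the windows around the 21 shared distal sites, the CRE core was found in 8 or 38.1%, against 14.5% of all shared distal sites, and the GC box in 33.3% against 13.1%. EGR motifs were found in 3 or 14.3%, against 1.15%, namely in Fos +12.2 kb, Fosb -10.1 kb and Junb -7.5 kb, and each of the 3 overlapped a footprint in both replicates. At Fosb -10.1 kb the footprints of the replicates lay over different bases of the motif. The AP-1 site was found in 14.3% against 11.4%, and the neuronal E-box in 9.52% against 36.4%. The distal sites of the 7 regions were richer in GC, with a median of 57% against 50.7%. Their median observed over expected CpG was 0.499 against 0.282. The part of this base composition in the motif shares was not tested.

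Agreement between replicates in the 7 regions was lopsided, as it was over the whole data set. Of 151 peaks of replicate 1, 54.3% overlapped a peak of replicate 2, against 38.0% of all its peaks. Of 87 peaks of replicate 2, 93.1% overlapped one of replicate 1, against 81.8% of all its peaks. The 69 peaks of replicate 1 without a partner had a median height of 0.738, and 42 of them were distal. The share with a partner was lowest for Jund at 38.1% and highest for Fosl1 at 61.9%. A few of these peaks were tall. The tallest, at 4.34, lay beside the Lsm4 promoter in the Jund region. Next, at 3.84, came a peak at -568 to -369 upstream of Jund with 3 footprints in replicate 1. Over these peaks FDR intervals were listed in replicate 2 too, with lowest log10 values of -14.56 and -17.14. Replicate 2 was thus not without signal there. Of the 69 peaks, 7 had such intervals in replicate 2. Others, without such intervals, lay at +6.1 and +9.2 kb of Fosb with 3.03 and 2.90 and at +21.8 kb of Junb with 2.75. A further one without them lay in the first part of Fosl2 at +4.1 kb with 2.68.

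**Figure D5:**
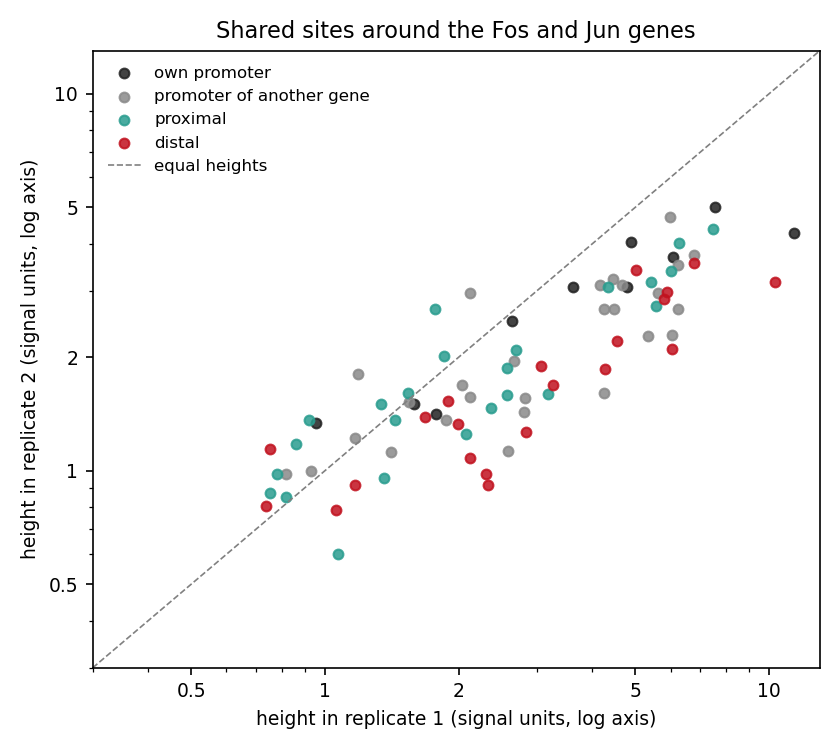
Heights of the 82 shared sites in the 7 regions, replicate 1 on the x axis and replicate 2 on the y axis (signal units, both axes logarithmic), coloured by class, with a dashed line at equal heights. Most sites lie under the line, and the distal point furthest below it is Fosb +14.1 kb at 10.3 and 3.17.

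Distal sites were lower in replicate 2 by more than the other classes of shared site in the 7 regions. Their median log2 ratio was -0.95, and 2 of 21 were higher in replicate 2. The median was -0.47 at proximal sites, of which 9 of 24 were higher in replicate 2, and also -0.47 at promoters of other genes. Over all shared distal sites of the data set it was -0.55. The lowest ratio, -1.70, was that of the Fosb site at +14.1 kb.

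Boundaries of peaks also differed. In Jun, replicate 2 had a second promoter peak from -578 to -199 with a height of 3.57, which had no overlapping peak in replicate 1. Footprints lay there in both replicates, 4 in replicate 1 and 5 in replicate 2, and 3 were found in both. The same held upstream of Jund, where 2 footprints of the peak found in replicate 1 alone were found in both replicates.

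The other genes of the pathway were described by lists. Of 15 genes for other leucine zipper partners of AP-1, 11 or 73.3% had an open promoter, against 57.1% of all protein-coding genes. Their median percentile was 47.0. By the mean of both replicates the highest were Atf4 with 8.80 in replicate 1 and 5.22 in replicate 2, Atf7 with 9.47 and 4.03, and Atf2, whose product pairs with Jun, with 7.27 and 3.53. No promoter peak was found in either replicate for Batf, Batf2 and Nrl, and Batf3 had one of 0.636 in replicate 1 only. Jdp2, a repressor partner of Jun that lies 125 kb from Fos on the same chromosome, was open at 2.12 and 1.67, while Batf lies 213 kb from Fos.

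Of 23 genes for upstream regulators, all were open, against 57.1% of all protein-coding genes, with a median percentile of 69.0. They include CREB and SRF factors, their cofactors and the kinases that act on them. By the mean of both replicates the highest were Stat3 with 12.6 and 4.21, Mrtfa, a cofactor of SRF, with 9.64 and 4.81, and Creb1 with 9.31 and 4.81. In replicate 2 alone Crem, with 5.14, and Mef2a, with 4.97, were above all of these. Srf itself had 6.37 and 3.41. The lowest was Elk3, an ETS partner of SRF, with 0.615 and 0.688.

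The other immediate early genes of the Egr and Nr4a families were open in 7 of 7, against 57.1% of all protein-coding genes. Their median percentile was 54.5. Egr1 was highest in both, with 9.36 in replicate 1 and 5.09 in replicate 2. By the mean of both replicates Egr4 followed with 4.93 and 2.88 and then Nr4a1 with 5.06 and 2.53, though Nr4a1 was above Egr4 in replicate 1 and below Egr3, at 2.85, and Nr4a2, at 2.65, in replicate 2. In distal sites these genes were like the Fos and Jun genes by their median, with 3 each and 2.93 against 2.46 per 100 kb, whereas the upstream regulators had a median of 1 and the partner genes of 2.

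By promoter height in both replicates the genes nearest to Fos were Bet1, Myl12b and Abcc1, at distances of 0.007, 0.011 and 0.015 on the log2 scale over the 2 samples. With 2 samples such closeness places a gene at one point among 12484 and is a description only.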

How the data were processed

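The authors deposited, for each of the 2 samples, 2 peak lists, a footprint list and intervals with a false discovery rate, on mm10 per the labels. Aligner and callers: not given in the sources used here. Peak height is a signal value deposited by the authors, whose scaling is not given. The FDR, read as a q-value, was deposited by the authors per interval and is used only where quoted.

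The longer list was the main list. A shared site was the intersection of overlapping peaks (at least 1 bp), with the highest value of each replicate as its height. Genes came from GENCODE M21 and sequence from the RefSeq copy of GRCm38. Chromosomal peaks ended within its chromosome lengths. Percentiles are shares of open genes, or of shared distal sites, with lower height. Python 3.11.15, numpy 2.4.6, matplotlib 3.10.9 and samtools 1.23.1 were used, and the interval and motif functions were tested on simulated data.

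The genes, lists and motifs were chosen with earlier results of these data known, and the Jun and ATF type motif was added to the others. Named were all members, from each list the 3 highest open genes and up to 5 without a shared site, the 3 highest distal sites per member and the 3 genes nearest to Fos in height. Jdp2, Srf, Elk3, Crem, Mef2a, Egr3, Nr4a2, the proximal sites, the lower distal sites and the peaks of a single replicate were named after their values were seen. Alternatives were the shorter list, other windows and overlaps, and each replicate alone.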

Additional observations from a re-analysis of the deposited data

How the results depend on the processing

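Of 50 alternative values, 42 stayed within 1.5 times a count or within 1 SD, and 8 were counted as moved. The SD was taken between replicates for a percentile and over members for a log2 ratio. For a percentile it thus came from the same replicates, so leaving either out could hardly be counted as moved. Among the 8, the difference of percentile rank is in other units and was counted as moved without comparison with an SD. With 50% reciprocal overlap of peaks, 4 of 7 members and 4 of 7 Egr and Nr4a genes were open. So were 9 of 15 partner genes and 18 of 23 upstream regulators, and the share of all genes was not computed. The median percentile of the members was then 50.3 in place of 74.2. Distal sites of the members numbered 45 in place of 21 when sites over 500 bp from a start were counted, and with single replicates 22 to 61. Leaving out a replicate gave a median percentile of 64.3 to 82.2, 11 to 12 open partner genes, and left 7 members open and 7 with a footprint in the one replicate. These counts of genes could not fall, since the peaks of either replicate cover every shared site. The same held for a promoter window of 2000 bp, which contains that of 500 bp. Such alternatives are among the 42. The median log2 ratio at member promoters was -0.12 after subtracting the median of all shared sites, and 7.86 points as a difference of percentile rank. Motif matches fell from 25 to 13 with windows of 100 bp in place of 300 bp, which hold fewer letters. Beyond the overlap and the window, whose construction changes what is counted, the cause was not tested. Fosl1 lost its open promoter in the shorter list, and Fosb lost it within 200 bp of a start. No paired analysis was possible because there is a single group. Precision is limited by 2 samples of unknown depth, by peak borders that differ between replicates and by alleles pooled on 1 reference.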
